A study of Mus musculus with 2 samples.

Results

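The genes described here are 6 members of the neuregulin and ErbB signalling system, out of 22401 features in the UMI matrices of embryonic mouse hearts. They are the ligand genes Nrg1 and Hbegf and the receptor genes Egfr, Erbb2, Erbb3 and Erbb4, and all 6 were found by Ensembl ID in both libraries. Whole hearts were taken from embryos at stage E11.5 and profiled by 10x Genomics 3′ single-cell RNA sequencing in 2 libraries, 1 per genotype. Control embryos carried 1 floxed copy of Hand2, a transcription factor gene, with a wild-type copy and no Cre (Hand2fx/+). H2CKO embryos carried Nfatc1Cre, which acts in the endocardial lining of the heart and so also marks cells that descend from it, together with floxed Hand2 on both chromosomes (Hand2fx/fx). Every embryo had 1 copy of the R26RmTmG reporter, which switches from Tomato to GFP once Cre has acted. The Cre allele and the loss of Hand2 differ together between the groups and cannot be told apart. Dissected embryos of both groups waited on ice for about 3 hours before their cells were separated. The labels give neither the number nor the sex of the embryos in a library. With 1 library in each group, no difference here has a replicate check, no test across samples exists, and the intervals given cover counting error only.

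Neuregulin-1 and heparin-binding EGF-like growth factor are membrane-anchored ligands that are released by proteases and bind receptors on neighbouring cells. ERBB3 and ERBB4 bind neuregulins, EGFR and ERBB4 bind HB-EGF, and ERBB2 has no known ligand of its own and works as the partner of the others. In the developing heart, endocardial neuregulin acting on ERBB2 and ERBB4 in the myocardium is known to be needed for trabeculation, ERBB3 is known for its part in cushion mesenchyme, and HB-EGF with EGFR is known to limit valve growth.

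The receptor-binding part of neuregulin-1 and the catalytic loop of the receptors are shown. The first makes Nrg1 a ligand of this system. The second belongs to the kinase domain of all 4 receptors, although the kinase of ERBB3 is weak. Sequences were read from the GENCODE vM21 transcripts (GRCm38), on the coding strand. The stretch of Nrg1 runs from the first cysteine codon of the EGF-like domain to the end of that exon, at chr8:31849312-31849398 on the minus strand, and stands in all 13 annotated transcripts with a coding sequence, of any type. Its capitals mark the 4 cysteine codons.
Nrg1: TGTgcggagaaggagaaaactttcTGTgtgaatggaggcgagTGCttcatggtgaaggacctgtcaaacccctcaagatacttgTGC
In the receptors the capitals mark the codon of the catalytic aspartate, in exon 21 of the transcript read for each gene. Of the transcripts with a coding sequence, the stretch stands in 1 of 3 for Egfr and 2 of 3 for Erbb4. Erbb2 and Erbb3 have 1 such transcript each, which holds it.
Egfr: caccgtGACttggcagccaggaat
Erbb2: cacaggGACctagctgcccgaaac
Erbb3: cataggGACcttgcgctccggaat
Erbb4: catcggGATctggcagcccgcaat
These lie at chr11:16904338-16904361 (plus strand), chr11:98434247-98434270 (plus), chr10:128572533-128572556 (minus) and chr1:68080739-68080762 (minus). Between any 2 receptors, 15 to 18 of the 24 bases were the same, with the fewest between Egfr and Erbb3 and the most between Egfr and Erbb4. The assay reads transcript ends, so these coding stretches were not themselves measured, and isoforms of Nrg1, whose 12 transcripts typed as protein-coding have 10 distinct 3′ ends, were not separated.

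The matrices held 195825720 UMIs in 14114 control barcodes and 201477256 UMIs in 13885 H2CKO barcodes, and filtering left 9251 and 11413 cells whose median depths were 16439 and 13377 UMIs. Kept cells had a median of 3200 genes and 2.43% mitochondrial UMIs in the control, and 2270 genes and 3.37% in H2CKO. The libraries shared 57 barcodes, 29 of them among kept cells. Cells were clustered without the 6 genes and named from marker lists, and the ending "-like" marks a class named in this way. Endothelial-like cells numbered 403 in the control and 743 in H2CKO, mesenchymal-like 1659 and 1070, epicardial-like 869 and 319, cardiomyocyte-like 1952 and 3529, outflow tract-like 405 and 496, white blood cell-like 81 and 110, and erythroid-like 2710 and 4928. A cluster of shallow cells stayed unnamed and held 12.7% of control and 1.91% of H2CKO cells. As a check of the labels, Hand2 in endothelial-like cells was at 222.5 in the control and 10.99 in H2CKO, and GFP at 16.7 and 1193, in CPM (the share of all UMIs of the class and library, on the usual scale). Levels of Tomato were 20.2 and 2.67 CPM in endothelial-like cells, but they also differed outside them, at 15.9 and 4.46 CPM in cardiomyocyte-like and 16.2 and 5.42 CPM in outflow tract-like cells, where GFP was at 10.1 and 9.55 CPM and at 13.6 and 13.0 CPM. All 12 endothelial, 12 mesenchymal and 12 cardiomyocyte markers were detected in the class they name, in both libraries. The summed level of the 12 erythroid markers was higher in H2CKO in each class compared below, at 12633 and 50877 CPM in mesenchymal-like, 22135 and 41611 in endothelial-like, 15667 and 43574 in epicardial-like, 13712 and 21618 in cardiomyocyte-like and 17223 and 23315 in outflow tract-like cells, none of them at 0. Their part in the lower ratios of the members was not tested.

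Nrg1 was a gene of endothelial-like cells, and its level there was lower in H2CKO. The control had 906 Nrg1 UMIs in these cells, or 131 CPM (95% Poisson interval 122 to 139.5), and H2CKO had 487 UMIs, or 52.0 CPM (47.5 to 56.8). The intervals do not overlap, and the level was 2.52-fold lower (95% exact conditional interval 2.25 to 2.81). On the log2 scale of CPM plus a pseudocount of 5, the ratio of H2CKO over the control was −1.25. A ratio of at least 1 in size on this scale is called past 2-fold below, for genes with at least 20 CPM and 20 UMIs in the higher library. By that rule 7.15% of the 6530 genes tested in endothelial-like cells were past 2-fold lower, and the median gene stood at −0.27, so a lower value in this class was not rare. Nrg1 was short of 2-fold when centred on that median gene (−0.98) and with the trend of all genes on gene length, described further on, taken off (−0.56). Summed markers in this class, control first, were at 1134 and 293 CPM for mesenchyme and 533 and 208 CPM for neural crest and neurons. They were at 2298 and 1504 CPM for cardiomyocytes, while the endothelial markers were higher in H2CKO, at 3851 and 4355 CPM. Their part in the Nrg1 difference was not tested.

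In the other classes Nrg1 was lower, with mesenchymal-like cells next. Mesenchymal-like cells had 29.1 CPM (27.0 to 31.3) in the control against 17.5 CPM (15.2 to 20.2) in H2CKO. Epicardial-like cells had 4.33 and 4.47 CPM, a difference within counting error. Outflow tract-like cells had 1.43 and 2.02 CPM, again within counting error, and the 4 and 12 UMIs in white blood cell-like cells gave intervals that include the epicardial-like levels. Cardiomyocyte-like cells had 1.26 and 0.274 CPM, and 53 of their 72 control UMIs came from a single sub-cluster led by Col3a1 and Col1a1, genes of mesenchyme. Erythroid-like cells, which serve as the measure of background from free RNA, had 0.253 CPM (0.135 to 0.433) and 0.0740 CPM (0.0240 to 0.173), below the outflow tract-like intervals in both libraries (0.802 to 2.36 and 1.15 to 3.28). The erythroid-like cells of the libraries fell in different clusters, since clusters 3 and 7 held 1461 and 1191 control cells but 7 and 4 H2CKO cells, and clusters 2, 4 and 6 held 28, 16 and 14 control but 2198, 1441 and 1278 H2CKO cells. The share of endothelial-like cells with an Nrg1 UMI was 32.5% in the control, where their median depth was 12986 UMIs, and 22.5% in H2CKO, where it was 10253. In erythroid-like cells the shares were 0.480% and 0.101%, at 18390 and 13200 UMIs. With every cell thinned to 5000 UMIs and shallower cells left out, which kept 380 of 403 control and 686 of 743 H2CKO cells, the endothelial-like shares were 18.7% and 13.6%.

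**Figure D1:**
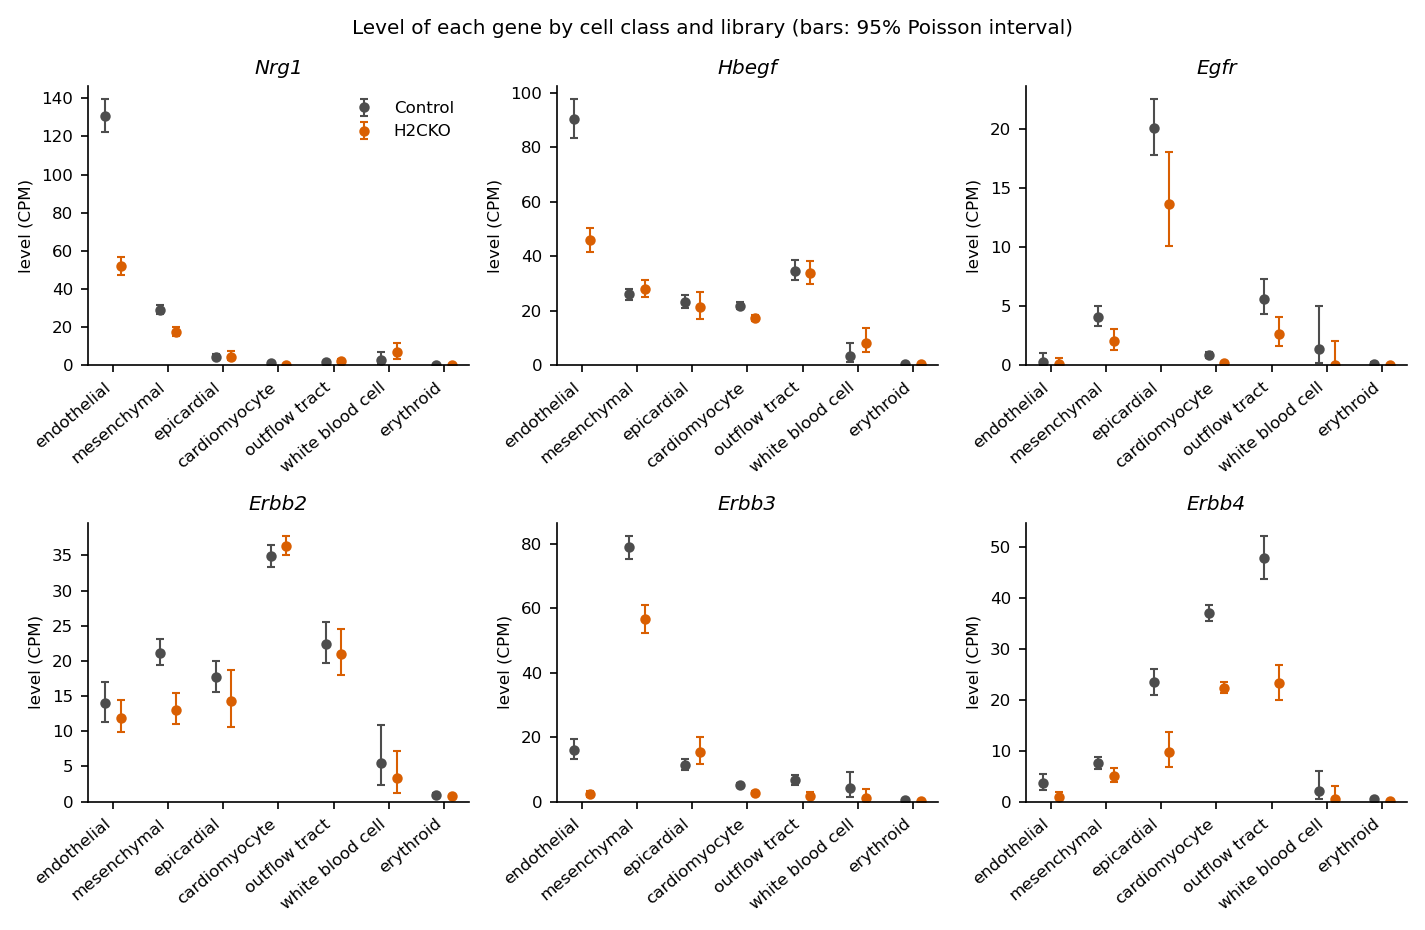
Level of each gene in CPM (vertical axis) by cell class (horizontal axis) in the control (grey) and H2CKO (orange) library, with 95% Poisson intervals as bars. Nrg1 is highest in endothelial-like cells (131 and 52.0 CPM), Erbb3 in mesenchymal-like, Egfr in epicardial-like, Erbb2 in cardiomyocyte-like and Erbb4 in outflow tract-like and cardiomyocyte-like cells.

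Within the endothelial-like class, Nrg1 was concentrated in 1 of 6 sub-clusters. Sub-cluster 4, led by Adamts8, Serpinb1a, Ptprr and Wnt9b and holding 61 control and 76 H2CKO cells, had 577 of the 906 control UMIs of Nrg1. Its level was 400.0 CPM (368 to 434) in the control against 195 CPM (172 to 221) in H2CKO, with a log2 ratio of −1.02. Nrg1 was itself among the 10 leading genes of this sub-cluster, although it took no part in the clustering. Sub-cluster 1, led by Krt79, Rbp7 and Car4, had 78.7 CPM (68.8 to 89.5) and 22.5 CPM (15.9 to 30.9), with a log2 ratio of −1.61. With the length trend taken off, these ratios were −0.42 in sub-cluster 4 and −1.11 in sub-cluster 1.

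In the remaining endothelial-like sub-clusters the libraries lay closer together. Sub-cluster 2, led by Lbp, Nr2f2 and Emcn, had 43.5 CPM (30.9 to 59.45) and 35.0 CPM (28.3 to 42.8), and sub-cluster 3, led by the cell-cycle genes Pclaf and Plk1 and by Irx5, had 46.5 CPM (34.7 to 61.2) and 36.6 CPM (28.9 to 45.8). Both pairs of intervals overlap, and the log2 ratios of −0.28 and −0.31 turned to 0.39 and 0.30 with the length trend taken off. Sub-cluster 6, led by Kcne3, Fabp4, Igfbp3 and Esm1, had 0 Nrg1 UMIs in 10 control and 35 H2CKO cells, where the upper bound of the interval is 19.9 and 6.99 CPM. Sub-cluster 5 was led by haemoglobin genes and had 9 and 18 Nrg1 UMIs. The sub-clusters made up different shares of the libraries, since sub-cluster 1 held 182 of 403 control cells and 179 of 743 H2CKO cells, and sub-cluster 2 held 77 and 279. How much of the class difference goes with this mix was not tested. Without sub-cluster 5 the log2 ratio of the class was −1.22.

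**Figure D2:**
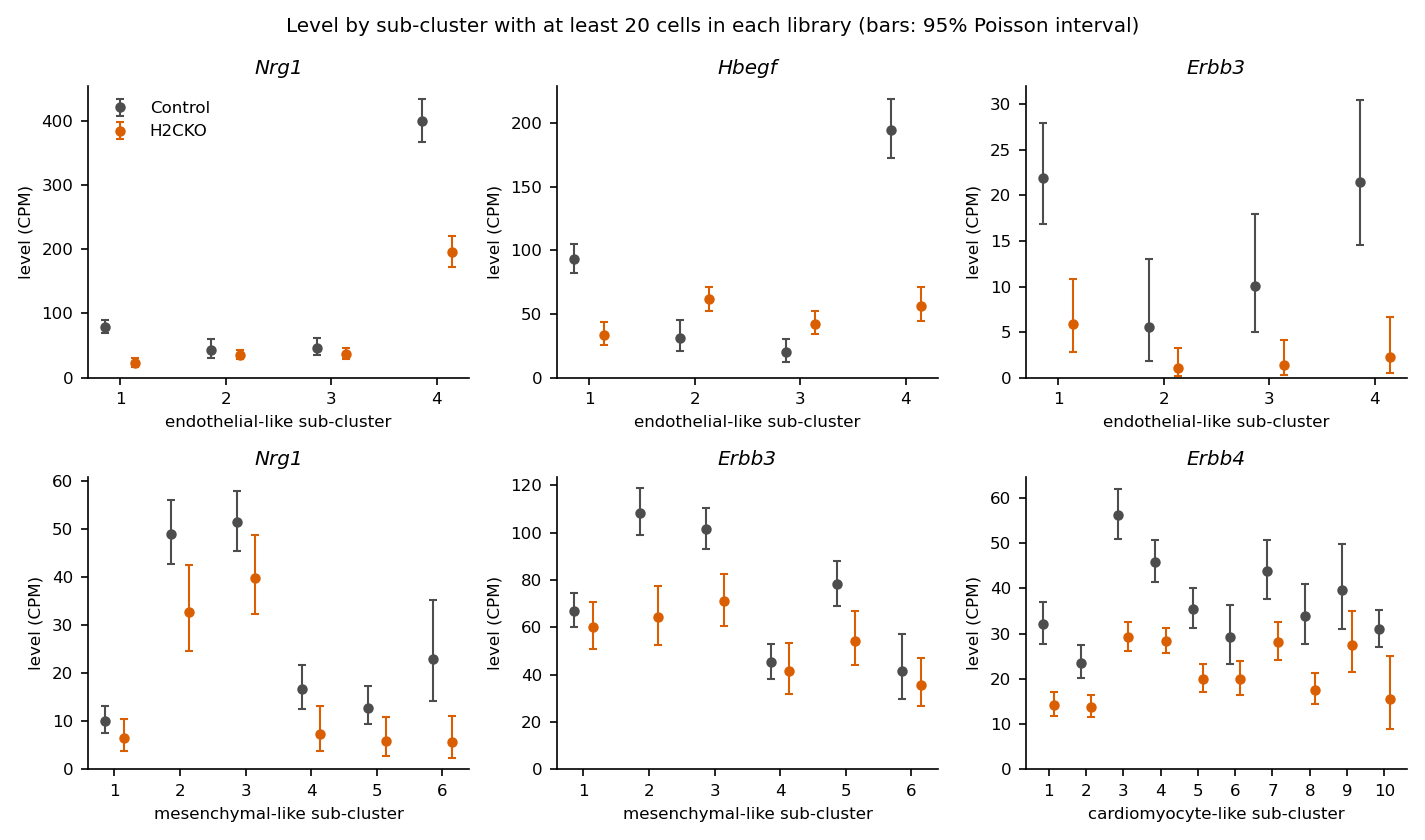
Level in CPM of Nrg1, Hbegf and Erbb3 in endothelial-like, Nrg1 and Erbb3 in mesenchymal-like and Erbb4 in cardiomyocyte-like sub-clusters with at least 20 cells in each library, control in grey and H2CKO in orange, with 95% Poisson intervals. Nrg1 stands out in endothelial-like sub-cluster 4, Hbegf is lower in H2CKO in sub-clusters 1 and 4 and higher in 2 and 3, and Erbb4 is lower in H2CKO in all 10 cardiomyocyte-like sub-clusters drawn.

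Mesenchymal Nrg1 was also unevenly spread. It was at 49.1 CPM (42.7 to 56.1) in the control in sub-cluster 2, led by Stmn4, Stmn3 and Cdkn2b, and at 51.5 CPM (45.6 to 58.0) in sub-cluster 3, led by Penk and Hand1; Sfrp2, Inhba and L1cam were among the leading genes of both. In sub-cluster 1, led by Btn1a1, GFP and Hist1h2bc, it was at 10.0 CPM (7.49 to 13.2). In H2CKO the same sub-clusters had 32.7, 39.96 and 6.43 CPM, so the order was alike in both libraries, with no overlap between sub-cluster 1 and the other two. Over the whole class Nrg1 was 1.66-fold lower in H2CKO (1.41 to 1.95), with a log2 ratio of −0.60 that was not past 2-fold and that turned to 0.15 once the length trend was taken off, in a class where 3.3% of 6525 tested genes were past 2-fold lower.

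Nrg1 in the mesenchyme of H2CKO also differed by the reporter, and how this split relates to the sub-clusters was not tested. Mesenchymal-like cells with a GFP UMI, 405 in number, had 8.69 CPM of Nrg1 (6.12 to 12.0), and the 665 cells without one had 22.9 CPM (19.5 to 26.8). Hand2 was at 21.1 and 63.2 CPM in these cells. Egfr was at 0.705 CPM (0.145 to 2.06) with GFP and 2.87 CPM (1.75 to 4.43) without, on 3 and 20 UMIs, so these intervals overlap. Erbb3, by contrast, was at 56.4 CPM (49.5 to 64.0) and 56.7 CPM (51.2 to 62.5), and Hbegf, Erbb2 and Erbb4 also had overlapping intervals. Among endothelial-like cells the 525 with a GFP UMI had more Nrg1, at 58.6 CPM (53.1 to 64.6), than the 218 without, at 32.0 CPM (25.2 to 40.1). Median depths were 9430 and 9680 UMIs in the mesenchymal-like and 10729 and 9079 UMIs in the endothelial-like cells, with and without GFP. In the control, which has no Cre, a GFP UMI was found in 17.5% (15.7 to 19.4, exact binomial) of mesenchymal-like and 22.3% (18.4 to 26.7) of endothelial-like cells, against 37.9% (34.9 to 40.8) and 70.7% (67.2 to 73.9) in H2CKO. Summed over cells, control GFP was at 14.6 CPM in mesenchymal-like cells, where H2CKO had 802 CPM. A cell with 1 GFP UMI therefore need not be of the Cre lineage, and one without can still be, since the transcript may be missed.

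Hbegf was the more widely detected ligand gene. It was highest in control endothelial-like cells, at 90.2 CPM (83.25 to 97.5), and stood at 45.8 CPM (41.5 to 50.3) in H2CKO, 1.97-fold lower (1.74 to 2.23) with a log2 ratio of −0.91, just short of 2-fold. As given for Nrg1, the mesenchymal and cardiomyocyte marker sums of this class were lower in H2CKO and the endothelial sum was higher. Their part in the Hbegf difference was not tested. Next in the control came outflow tract-like cells, with 34.7 CPM in the control and 33.8 CPM in H2CKO. Mesenchymal-like cells had 25.9 and 27.9 CPM and epicardial-like cells 23.2 and 21.5 CPM. Within each of these 3 classes as a whole the libraries differed by less than the counting error. The mesenchymal-like and epicardial-like levels did not differ from each other beyond their intervals. In mesenchymal-like sub-clusters 1 and 5 the ratio of H2CKO over the control was 1.42 (1.07 to 1.88) and 1.71 (1.08 to 2.69). It was 0.841, 0.783 and 1.42 in sub-clusters 2, 3 and 4, with intervals that include 1. Cardiomyocyte-like cells had 21.8 CPM (20.6 to 23.0) and 17.2 CPM (16.3 to 18.2), with a log2 ratio of −0.27. Erythroid-like cells had 0.448 and 0.296 CPM.

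Hbegf differed in opposite directions among endothelial-like sub-clusters. In sub-cluster 4, where Nrg1 was highest, Hbegf was at 195 CPM (173 to 219) in the control against 56.5 CPM (44.5 to 70.85) in H2CKO, with a log2 ratio of −1.70. In sub-cluster 1 it was at 93.4 CPM (82.6 to 105) and 33.7 CPM (25.5 to 43.7), with a log2 ratio of −1.35. These 2 sub-clusters were lower in H2CKO, and the next 2 were higher. Sub-cluster 2 had 31.2 CPM (20.7 to 45.1) in the control against 61.5 CPM (52.6 to 71.6) in H2CKO, and sub-cluster 3 had 20.1 CPM (12.6 to 30.4) and 42.3 CPM (34.0 to 52.1). In H2CKO, sub-cluster 2 was thus no lower than sub-cluster 4, whereas in the control it was far below it. Unlike Nrg1, Hbegf was also detected in sub-cluster 6, with 9 and 17 UMIs. Weighting every endothelial-like cell equally, so that deep cells count for no more than others, gave 73.1 and 48.3 CPM (log2 ratio −0.55), and the log2 ratio was −0.47 after thinning to 5000 UMIs.

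Erbb4, the neuregulin receptor with kinase activity, was highest in outflow tract-like cells, at 47.7 CPM (43.6 to 52.1) in the control against 23.2 CPM (19.96 to 26.8) in H2CKO. Cardiomyocyte-like cells had 37.0 CPM (35.4 to 38.6) and 22.3 CPM (21.3 to 23.5), on 2112 and 1633 UMIs. Epicardial-like cells had 23.4 CPM (21.0 to 26.1) and 9.77 CPM (6.80 to 13.6). In all 3 classes H2CKO lay below the control with no overlap, and in H2CKO the outflow tract-like and cardiomyocyte-like levels no longer differed beyond their intervals. The levels were 2.06-fold (1.73 to 2.45), 1.65-fold (1.55 to 1.77) and 2.40-fold (1.69 to 3.50) lower. On the log2 scale with a pseudocount of 5 the ratios were −0.90, −0.62 and −0.94, none past 2-fold, but with a pseudocount of 1 the outflow tract-like (−1.01) and epicardial-like (−1.18) ratios were past it. With the length trend taken off, the outflow tract-like ratio was −0.28 and the epicardial-like ratio −0.27. With doublets kept, where a second cluster of 351 control and 250 H2CKO cells joined the epicardial-like class, its levels were 25.0 and 15.9 CPM, with a log2 ratio of −0.52. These stand beside shares of genes past 2-fold lower of 1.85%, 0.879% and 4.86% in these classes. In epicardial-like cells the summed level of the 10 epicardial markers was also lower in H2CKO (2467 and 1527 CPM), as was that of the 12 mesenchymal markers (2305 and 1561 CPM), and their part in the Erbb4 and Egfr differences of this class was not tested. Mesenchymal-like cells had 7.49 and 5.08 CPM of Erbb4, endothelial-like cells 3.61 and 0.960 CPM, and erythroid-like cells 0.448 and 0.178 CPM.

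Among cardiomyocyte-like sub-clusters with at least 20 cells in each library, Erbb4 was lower in H2CKO in all 10, with an interval of the ratio below 1 each time. With the length trend taken off, their log2 ratios lay between −0.41 and −0.079, and that of the class went from −0.62 to −0.20. It was highest in the control in sub-cluster 3, led by the mitotic genes Prc1, Plk1 and Nusap1, at 56.1 CPM (50.8 to 61.9), against 29.2 CPM (26.1 to 32.5) in H2CKO. The lowest control level was in sub-cluster 2, led by Nppa, Cited1 and Wdr93 and also by Gja5 and Nppb, at 23.6 CPM (20.1 to 27.5), against 13.8 CPM (11.52 to 16.5). In both libraries the cells rich in Nppa, a gene of trabecular and atrial myocardium, therefore had less Erbb4 per UMI than the dividing cells of sub-cluster 3. The 2 sub-clusters led by genes of another class, 8 and 10, also had lower Erbb4 in H2CKO, and leaving both out gave a log2 ratio of −0.63 for the class. The mix of sub-clusters differed between the libraries. Sub-cluster 11, led by Nr2f1, Cav1 and Nr2f2, held 127 control and 2 H2CKO cells, and sub-cluster 10 held 171 and 35. How much of the class difference in Erbb4 goes with this mix was not tested.

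Erbb2, the partner receptor, did not follow Erbb4 in cardiomyocyte-like cells. It was at 34.9 CPM (33.4 to 36.5) in the control against 36.4 CPM (35.0 to 37.8) in H2CKO, with a ratio of 1.04 (0.983 to 1.10). The log2 ratio was 0.05, but −0.03 after thinning and −0.22 with a stricter filter on cells, so no direction can be read from it. Outflow tract-like cells had 22.4 and 21.1 CPM, epicardial-like 17.7 and 14.2 CPM and endothelial-like 13.997 and 11.95 CPM, all with overlapping intervals between libraries. Mesenchymal-like cells were the exception, with 21.1 CPM (19.4 to 23.0) and 13.1 CPM (11.1 to 15.4), with a log2 ratio of −0.53. By sub-cluster their ratio was 0.413 (0.253 to 0.649) in 3 and 0.605 (0.362 to 0.974) in 5. It was 0.889, 0.840 and 0.679 in 1, 2 and 4, with intervals that include 1. The summed level of the 12 mesenchymal markers in this class was 4584 and 2500 CPM, and their part in the Erbb2 difference was not tested. Cardiomyocyte-like cells were thus the highest class in both libraries, while the next 3 in the control (outflow tract-like, mesenchymal-like and epicardial-like) overlapped. Erythroid-like cells had 0.936 and 0.725 CPM. Erbb2 overlaps Mien1 on the opposite strand, and whether reads were counted by strand is not given in the sources used here.

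In cardiomyocyte-like sub-clusters Erbb2 ranged from 23.98 to 50.0 CPM in the control among those with at least 20 cells in each library. The highest was sub-cluster 9, led by Rspo3, Bmp2 and Gal with Tbx3 among its leading genes, at 50.0 CPM (40.3 to 61.4) in the control against 42.7 CPM (35.0 to 51.6) in H2CKO. One sub-cluster had an interval of the ratio above 1, sub-cluster 6, with 24.6 CPM (19.1 to 31.1) and 37.5 CPM (32.6 to 42.9). The others had intervals that include 1.

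UMIs of both receptors of the myocardial pair were counted within single cells. Of 1952 control cardiomyocyte-like cells, 710 had a UMI of both Erbb2 and Erbb4, where the product of the separate shares gives 624. In H2CKO 665 of 3529 cells had both, where the product gives 526. Erbb2 alone was found in 56.9% and 45.8% of cardiomyocyte-like cells and Erbb4 in 56.1% and 32.6%, at median depths of 25956 UMIs in the control and 17741 in H2CKO. In erythroid-like cells, the measure of background, Erbb2 was found in 1.73% and 0.994% and Erbb4 in 0.849% and 0.244%. Depth that varies between cells raises the joint count. After thinning to 5000 UMIs, with shallower cells left out, the numbers were 61 against 48.6 of 1925 control cells and 60 against 53.3 of 3449 H2CKO cells. Whether these exceed the product by more than counting error was not tested.

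Erbb3, the neuregulin receptor whose kinase is weak, was a gene of mesenchymal-like cells. It was at 78.9 CPM (75.4 to 82.5) in the control against 56.5 CPM (52.2 to 61.1) in H2CKO, on 1918 and 635 UMIs. The level in H2CKO was 1.40-fold lower (1.27 to 1.53), with a log2 ratio of −0.45, against −0.23 for the median gene of the class. A UMI was found in 54.9% and 39.5% of these cells, at median depths of 12493 and 9564 UMIs, and in 0.923% and 0.223% of erythroid-like cells. After thinning, which kept 1595 and 1010 mesenchymal-like cells, the shares were 30.0% and 22.8%. Epicardial-like cells came next in H2CKO, with 11.3 CPM in the control and 15.3 CPM in H2CKO, an overlap of intervals, and cardiomyocyte-like cells had 5.22 and 2.74 CPM.

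The difference in mesenchymal Erbb3 was not even across sub-clusters. Sub-cluster 2 had 108 CPM (98.9 to 119) in the control against 64.1 CPM (52.5 to 77.6) in H2CKO, and sub-cluster 3 had 101 CPM (93.1 to 110) and 71.0 CPM (60.6 to 82.6). In sub-cluster 1 the levels were 66.9 CPM (60.1 to 74.4) and 60.3 CPM (51.0 to 70.7), which overlap. Sub-cluster 5, led by Nusap1 and Prc1, had 78.2 and 54.4 CPM, with a ratio of 0.695 (0.542 to 0.884). Sub-cluster 4, led by Slfn9 and Hist1h1b, had 45.2 and 41.6 CPM, with a ratio of 0.922 (0.674 to 1.25). Sub-clusters 2 and 3, which had the most Nrg1, thus also had the most Erbb3 in the control, and in H2CKO they no longer stood above sub-cluster 1 beyond the intervals. Mesenchymal markers themselves were lower in H2CKO, with a summed level of the 12 markers of 4584 CPM in the control and 2500 CPM in H2CKO, and their part in the Erbb3 difference was not tested.

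Endothelial-like cells had little Erbb3, and most of it was in the control. There were 112 UMIs in the control, or 16.2 CPM (13.3 to 19.5), and 21 UMIs in H2CKO, or 2.24 CPM (1.39 to 3.43). The level was 7.21-fold lower in H2CKO (4.50 to 12.1), with a log2 ratio of −1.55, but the gene did not reach the minimum of 20 CPM and is not counted past 2-fold. The same direction appeared in sub-clusters 1 (21.9 and 5.91 CPM), 2 (5.58 and 1.11 CPM), 3 (10.04 and 1.43 CPM) and 4 (21.5 and 2.26 CPM), where the interval of the ratio included 1 in sub-cluster 2 alone. Other genes of mesenchyme moved with it, since the summed level of the 12 mesenchymal markers in endothelial-like cells was 1134 CPM in the control and 293 CPM in H2CKO, with 8 and 4 of the 12 at 20 CPM or more and none at 0. Their part in the Erbb3 difference was not tested. With no doublets removed the levels were 14.4 and 2.60 CPM.

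Egfr was the least detected receptor gene in most classes and was highest in epicardial-like cells. These had 20.1 CPM (17.8 to 22.5) in the control against 13.7 CPM (10.1 to 18.1) in H2CKO, on 287 and 49 UMIs, with a log2 ratio of −0.42. The intervals of the levels overlap slightly, and that of the ratio (0.493 to 0.926) lies below 1. The log2 ratio turned to 0.20 with the length trend taken off. With doublets kept, Egfr in this class was at 12.7 and 5.602 CPM, under the minimum level, with a log2 ratio of −0.74. In outflow tract-like cells it was at 5.63 and 2.65 CPM, and the mesenchymal-like levels were 4.11 and 2.05 CPM, both without overlap between libraries and both under the minimum level. Endothelial-like cells, where its ligand gene Hbegf was highest, had 2 and 1 Egfr UMIs, a level that cannot be told from the 0.117 and 0.0148 CPM of erythroid-like cells. The 47 control UMIs in cardiomyocyte-like cells (0.823 CPM) came in large part from the sub-cluster led by Col3a1, which held 31 of them.

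In all, 15 of the 36 pairs of a gene and a class with at least 100 cells in each library reached the minimum level, and 1 of the 15, Nrg1 in endothelial-like cells, was past 2-fold. The number was 0 when ratios were centred on the median gene, 0 with the length trend taken off and 3 with a pseudocount of 1. The minimum is read in the higher library. Past 2-fold lower were 7.15% of tested genes in endothelial-like, 3.3% in mesenchymal-like, 4.86% in epicardial-like, 0.879% in cardiomyocyte-like and 1.85% in outflow tract-like cells. Past 2-fold higher were 0.796% of tested genes in endothelial-like, 0.414% in mesenchymal-like, 0.475% in epicardial-like, 0.215% in cardiomyocyte-like and 0.151% in outflow tract-like cells.

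**Figure D3:**
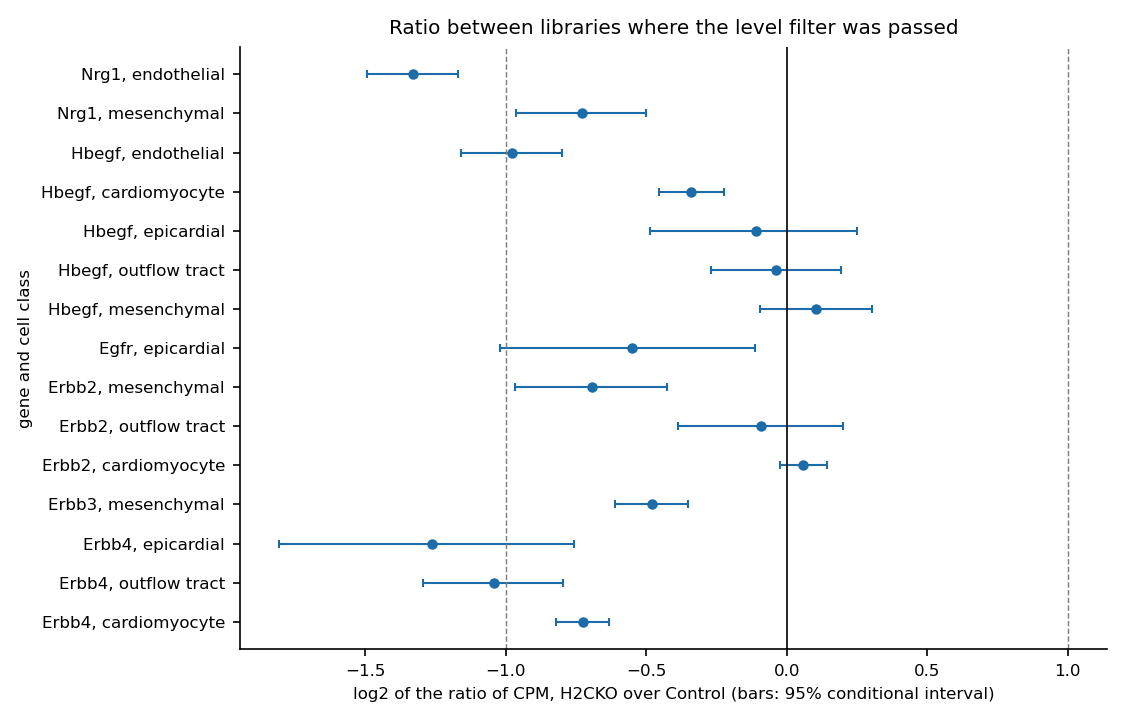
Log2 of the ratio of CPM in H2CKO over the control (horizontal axis, no pseudocount) for the 15 pairs of gene and class that reached the minimum level, with 95% conditional intervals; dashed lines mark 2-fold. Nrg1 in endothelial-like cells lies wholly beyond the dashed line (ratio 0.398, interval 0.355 to 0.444), and Erbb2 in cardiomyocyte-like cells lies at 1.04.

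The length of a gene moved with these ratios. In every class the log2 ratio fell with the genomic span of the gene, with a Spearman rho across genes of −0.49 in endothelial-like, −0.49 in cardiomyocyte-like and −0.55 in mesenchymal-like cells, where genes are not independent replicates. Nrg1 spans 1069 kb (chr8:31814551-32884029), Erbb4 1076 kb (chr1:68032186-69108059) and Egfr 166 kb (chr11:16752203-16918158). Erbb2 spans 25.2 kb (chr11:98412470-98437716), Erbb3 22.1 kb (chr10:128567523-128589652) and Hbegf 10.9 kb (chr18:36504927-36515805). The 2 longest genes are thus among those with the lowest ratios.

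Read at the span of each gene, the trend of all tested genes was −0.70 for Nrg1 in endothelial-like and −0.42 for Erbb4 in cardiomyocyte-like cells. Less this trend, Nrg1 in endothelial-like cells stood at −0.56 and Erbb4 at −0.20 in cardiomyocyte-like, −0.28 in outflow tract-like and −0.27 in epicardial-like cells. Nrg1 in mesenchymal-like cells turned to 0.15 and Egfr in epicardial-like cells to 0.20. The short genes moved less, with Hbegf in endothelial-like cells at −0.85 and Erbb3 in mesenchymal-like cells at −0.24. After this step none of the 15 pairs was past 2-fold, and Hbegf, not Nrg1, was the lowest in endothelial-like cells among pairs at the minimum level. Whether both libraries were counted alike, intronic reads included, is not given in the sources used here, and what makes the ratio fall with span was not tested.

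**Figure D4:**
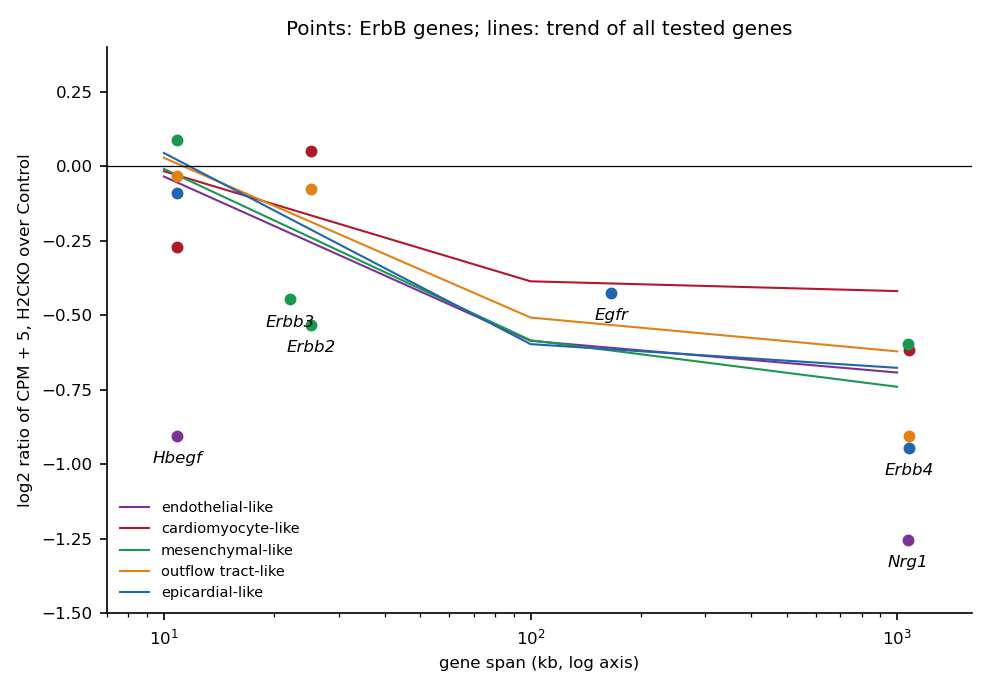
Log2 ratio of CPM plus 5, H2CKO over the control (vertical axis), against gene span in kb (horizontal log axis) for the 15 pairs of gene and class at the minimum level (points) and the trend of all tested genes of the class read at 3 spans and joined (lines). Erbb4 and Nrg1 lie at the long end, where the lines are at −0.42 to −0.74, and Hbegf in endothelial-like cells lies far under its line at the short end.

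Other genes of the pathway were taken from a list of 76, of which 75 were in the matrices. None of the 9 other ligand genes (Nrg2, Nrg3, Nrg4, Egf, Tgfa, Areg, Ereg, Btc and Epgn) reached the minimum level in endothelial-like, mesenchymal-like or cardiomyocyte-like cells. In endothelial-like cells 5 of 49 tested list genes were past 2-fold lower and 0 higher. In mesenchymal-like cells these were 2 of 48 and 0, and in cardiomyocyte-like cells 1 of 37 and 0. Of all tested genes in these classes, 7.15%, 3.3% and 0.879% were past 2-fold lower, and nothing particular to the list is read from its counts. The median log2 ratios of the list were −0.54, −0.54 and −0.38, beside −0.27, −0.23 and −0.18 for all tested genes. With the length trend taken off, the medians of the list were −0.091, −0.13 and −0.086, beside 0.0055, 0.0023 and 0.00079 for all tested genes.

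Of the list genes past 2-fold, Adam10 and Adam19 encode membrane proteases, and both stand on the list for ligand release. Adam10 was at 221 CPM in the control and 75.6 CPM in H2CKO in endothelial-like cells (log2 ratio −1.49), and Adam19 at 74.9 and 24.01 CPM (−1.46). Adam19 was also the single list gene past 2-fold in cardiomyocyte-like cells, at 26.3 and 9.62 CPM (−1.10). Among genes acting after the receptors, the docking protein gene Gab1 (31.0 and 11.7 CPM) and Pik3r3, a regulatory subunit of phosphoinositide 3-kinase (46.9 and 20.6 CPM), were past 2-fold in endothelial-like cells, and Sos1, a Ras activator (31.1 and 11.7 CPM), was in mesenchymal-like cells. The integrin gene Itgb1 was past 2-fold in both, at 653 and 300 CPM in endothelial-like and 819 and 398 CPM in mesenchymal-like cells. None of the tested genes known to rise with ERK or ErbB signalling (5 in cardiomyocyte-like, 6 in endothelial-like and 6 in mesenchymal-like cells) was past 2-fold. With the trend on span taken off, 0 list genes were past 2-fold in any of the 3 classes.

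The genes whose levels were most like those of each member over 14 pairs of class and library were found among 8463 genes, by Pearson's r of log2 CPM plus 5, as a description of points that share libraries and depth. For Nrg1 they were Procr (r = 0.98), Ptprb (0.98) and Notch1 (0.97), and for Hbegf Ccnjl (0.98), Hspg2 (0.98) and Pdlim1 (0.98). For Egfr they were Cpz (0.96), Ildr2 (0.96) and Ntf5 (0.96), for Erbb2 Stk39 (0.98), Fign (0.97) and P3h2 (0.97), for Erbb3 Rtn1 (0.98), Antxr1 (0.98) and Clmp (0.98), and for Erbb4 Ccdc136 (0.98), Dsp (0.98) and Alcam (0.97). Among the 6 genes themselves the closest pair was Erbb2 and Erbb4 (0.84), and the most opposed was Nrg1 and Erbb4 (−0.33).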

How the data were processed

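The deposited matrices hold raw UMI counts per gene and barcode, per the file headers 1 Ensembl ID per line and 1 barcode per column, made by the authors with no normalization. The deposited embedding coordinates are a score without a unit and served only to mark cells for an alternative. The submitters' processing notes name Cell Ranger 5.0.1, Seurat 4 and GRCm38.p6 without saying which step used them. Sequences, spans and coordinates came from GENCODE vM21 (GRCm38).

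Barcodes were kept from 500 genes upward when mitochondrial UMIs made up 10% or less. Scrublet (scanpy 1.11.5) scored doublets. Its automatic threshold marked 1048 control and 0 H2CKO cells, so the highest 6% of scores were removed in each library, a choice made after seeing the data. After scaling to 10000 and a log transform, the 2000 most variable genes were standardised within each library. Left out were the 6 members, the pathway list, Hand2, both reporters, and haemoglobin, mitochondrial and Y-linked genes. Of X-linked genes, Xist, Tsix, Eif2s3x, Kdm6a, Kdm5c and Ddx3x were left out. Cells were joined over 30 principal components to 15 neighbours from each library, and Leiden clustering at resolution 1 (leidenalg 0.10.2) gave 13 clusters, which took their names from 10 marker lists, with the shallow cluster left unnamed and the outflow tract-like cluster named by rules set after seeing the data. The cardiomyocyte-like, endothelial-like and mesenchymal-like classes were split again at resolution 0.8.

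Levels are in CPM, from the UMIs of a gene in a class and library over the total of that class and library. Intervals are 95% exact Poisson for counts and exact conditional for ratios (scipy 1.17.1). UMIs remove PCR copies, and the intervals cover counting error only. Genes with at least 20 CPM and 20 UMIs in the higher library were tested for a ratio of at least 2-fold. Cells were thinned to 5000 UMIs, leaving out shallower ones, where shares are compared. The trend on gene span was a lowess curve (statsmodels 0.14.6). The ratio code was tested on simulated data with known changes. Of the pathway list, genes past 2-fold in 3 classes are named, and for each member the 3 genes most like it. The members and lists were chosen with earlier results of these data known.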

Additional observations from a re-analysis of the deposited data

Results flagged for a closer look

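Hbegf differed between the libraries in opposite directions among endothelial-like sub-clusters. The ratio of H2CKO over the control was 0.361 (95% conditional interval 0.267 to 0.482) in sub-cluster 1 and 0.29 (0.222 to 0.376) in sub-cluster 4. It was 1.97 (1.32 to 3.06) in sub-cluster 2 and 2.11 (1.31 to 3.53) in sub-cluster 3. The difference between sub-clusters was not tested, since each genotype has 1 library.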

How the results depend on the processing

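Nrg1 in endothelial-like cells (−1.25) was lower in H2CKO under all 11 alternatives run, between −1.39 and −0.56. It was −0.98 when centred on the median gene, −0.56 with the span trend taken off and −1.03 in embedded cells with an equal gene minimum. Erbb4 in cardiomyocyte-like cells (−0.62) was −0.44, −0.20 and, under the strict cell filter, −0.84. Erbb3 in mesenchymal-like cells (−0.45) was −0.21 centred and −0.24 with the span trend taken off. The number of pairs past 2-fold (1) was 0 when centred and 0 with the span trend taken off, 3 with a pseudocount of 1, 2 for the mean over cells, 2 under the strict filter and 2 with no level filter. The list genes past 2-fold lower, 8 over the 3 classes, were 2 when centred, 0 with the span trend taken off and 3 at a minimum of 100 CPM. Centring moved the genes past 2-fold in endothelial-like cells from 467 lower and 52 higher to 164 and 121. The class with the highest level was the same for 6 of 6 genes after thinning and with doublets kept, and for 5 under the strict filter, where Erbb4 was highest in cardiomyocyte-like cells in H2CKO. At Leiden resolution 0.5 and by each cell's own markers there was no outflow tract-like class and so no value for it, and Erbb4 was highest in cardiomyocyte-like cells. Of 137 other values, 119 stayed within the counting error of the reported value and 18 moved by more. Leaving out sub-clusters led by another class was chosen after seeing the data. Pooling named and unnamed endothelial clusters was not run, because all endothelial clusters were named. No paired analysis was possible because each group has 1 library, and for the same reason no library could be left out.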
